A study of Mus musculus with 18 samples.

Results

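Canonical Wnt targets and effectors were followed in mouse embryoid bodies in which expression of the transcription factor Msgn1 was switched on. The genes were named by symbol, with earlier results of these data known: Lef1, Tcf7, Sp5, Sp8, Axin2, Nkd1, Apcdd1, Dact1, Tnfrsf19 and Notum. A probe set, the group of short oligonucleotides that reports 1 transcript on the array, counted as a member where the array annotation gave it 1 of these symbols and no other. This gave 21 probe sets of 9 genes, among 45037 probe sets that were not controls and 18193 gene symbols in all. Tcf7 had no such probe set, and its RNA is not analysed here. All 21 member probe sets passed the filter on low signal, which left 30727 probe sets in the test.

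Embryoid bodies are clumps of embryonic stem cells that differentiate in suspension. They came from 1 stem cell line of the 129P2 strain, A2lox-Flag-Msgn1, in which doxycycline turns on a FLAG-tagged Msgn1, and were grown for 2 days before the comparison began. Induced bodies then received doxycycline at 1 µg/ml and uninduced bodies did not, and each kind was collected 12, 24 and 48 h later. The 6 groups had 3 arrays each, called biological replicates in the labels. All 18 arrays were of cells that carry the inducible construct and whose stem cells had been kept on mitomycin-treated mouse fibroblasts, and no array showed doxycycline acting on cells without the construct.

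Canonical Wnt signalling acts through beta-catenin. Without a Wnt ligand, a destruction complex built on Axin and Apc marks beta-catenin for degradation. When a ligand binds Frizzled and Lrp receptors the complex is held back, and beta-catenin reaches the nucleus, where it works with DNA-binding factors of the Tcf/Lef family. Many genes switched on in this way encode inhibitors of the same pathway, so their RNA is widely used as a readout of signalling. In the mouse embryo the pathway is needed for the primitive streak and for the presomitic mesoderm, the unsegmented tissue from which somites form. Msgn1, a basic helix-loop-helix factor, is a regulator of presomitic mesoderm and is itself a Wnt target.

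Promoter sequence is shown for Sp5, Sp8 and Tnfrsf19, which were called higher in induced bodies at 24 h and hold a Tcf/Lef word, and for Dact1, which was called higher earliest. These were picked after the values were seen. Lef1, also called higher at 24 h, held no Tcf/Lef word at any of its starts. The starts of Sp8 and Tnfrsf19 that are not shown held none either. Each sequence is the 250 bases before a RefSeq transcript start (build GRCm38.p6), 5′ to 3′ on the gene's strand, and capitals mark the matches found by a search of both strands.
Sp5 (chr2:70474673-70474922, plus strand): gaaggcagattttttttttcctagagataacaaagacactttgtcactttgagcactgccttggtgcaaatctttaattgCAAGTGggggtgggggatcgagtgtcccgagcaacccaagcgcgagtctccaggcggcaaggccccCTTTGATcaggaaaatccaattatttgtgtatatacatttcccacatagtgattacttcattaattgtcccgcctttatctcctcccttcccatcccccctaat
Sp8, the middle of its 3 starts (chr12:118846983-118847232, plus strand): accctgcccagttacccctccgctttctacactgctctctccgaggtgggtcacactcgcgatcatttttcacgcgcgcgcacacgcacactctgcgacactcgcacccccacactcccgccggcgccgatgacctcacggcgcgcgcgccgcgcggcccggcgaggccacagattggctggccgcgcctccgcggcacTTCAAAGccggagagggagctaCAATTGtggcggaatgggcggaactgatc
Tnfrsf19, the downstream of its 2 starts (chr14:61037988-61038237, minus strand): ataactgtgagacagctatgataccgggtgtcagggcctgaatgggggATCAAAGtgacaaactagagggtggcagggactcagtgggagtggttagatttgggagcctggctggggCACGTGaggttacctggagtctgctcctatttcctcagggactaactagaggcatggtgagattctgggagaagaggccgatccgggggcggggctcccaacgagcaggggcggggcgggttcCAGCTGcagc
Dact1 (chr12:71309634-71309883, plus strand): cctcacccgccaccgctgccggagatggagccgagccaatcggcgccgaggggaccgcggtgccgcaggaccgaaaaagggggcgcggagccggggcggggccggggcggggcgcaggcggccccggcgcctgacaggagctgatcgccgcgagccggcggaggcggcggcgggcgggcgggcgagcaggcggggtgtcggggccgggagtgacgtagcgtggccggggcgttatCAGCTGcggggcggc

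The words searched were CTTTGAA and CTTTGAT, the core bound by Tcf/Lef factors, and the E-box CANNTG, the core bound by basic helix-loop-helix factors. They share no overlapping match in these promoters. In Sp5 the word CTTTGAT began 104 bases before the start and an E-box began 170 bases before it. In Sp8 the Tcf/Lef word read on the opposite strand as TTCAAAG, 51 bases before the start, with an E-box at 29 bases. Tnfrsf19 had the word as ATCAAAG at 202 bases, and E-boxes at 133 and 10 bases. The Dact1 promoter had 1 E-box, CAGCTG, 15 bases before the start, and neither Tcf/Lef word. Of 15 starts of 8 member genes searched, Tcf7 among them, 3 held a Tcf/Lef word and 12 an E-box. By gene these numbers were 3 and 7, for which no share of all genes is given. Member starts on chromosome 18, where Apcdd1 lies, were left out, and Notum had no start among the 15. Lef1 starts 1 and 2 overlap and share an E-box, so the starts are not all separate sequences. Over 32851 mouse promoters of the same length, with no chromosome left out, the shares per start were 7.48% and 66.2%. A match is only a run of letters, and binding was not measured.

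Msgn1 itself was higher in every induced array, with a signal of 64.7 to 76.8 in induced against 15.0 to 25.2 in uninduced bodies at 12 h, 52.9 to 67.3 against 5.22 to 16.3 at 24 h, and 44.5 to 56.3 against 4.69 to 8.68 at 48 h. Replicate arrays correlated at 0.990 to 0.994 over all probe sets of the array, controls and those under the filter included, and no pair of arrays held identical values. Signal is the array's brightness per probe set on a linear scale. Differences were tested with limma on log2(signal + 32), so fold changes understate those of dim probe sets, and a probe set was called at a Benjamini-Hochberg adjusted p under 0.05 over all 30727. In such bulk samples, fewer cells of a type and less RNA per cell cannot be told apart.

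The member genes differed in when they were called. Dact1 was called higher at 12 h and 24 h, Sp5 and Sp8 were called at 24 h alone, and Nkd1 and Apcdd1 were called at 48 h alone. Lef1 and Tnfrsf19 were called at 24 h and 48 h, while Axin2 and Notum were called at none. Being called at 1 time and not at another is no test of a change between times, which is given further on. Arms without overlap are described below as values and not as a test. The share of all tested probe sets without overlap is not given.

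At 12 h 1 of 21 member probe sets was called higher and 0 lower, where 0.452% of all tested probe sets were higher and 0.0814% lower. Without adjustment 3 had a limma p under 0.05, all higher. At 24 h 5 were called higher and 0 lower, beside 1.51% higher and 0.368% lower of all. Without adjustment 11 were higher and 1 was lower at this time. The shares of all tested probe sets without adjustment are not given here, so the 12 h and 24 h counts without adjustment have no comparison. At 48 h 9 probe sets of 4 genes were higher and 0 lower, beside 4.30% higher and 3.48% lower of all. The median log2 difference of the 21 was 0.06 at 12 h, 0.42 at 24 h and 0.27 at 48 h, where the median of all tested probe sets was 0.00 at each time. The map of these differences shows the 48 h calls lying mostly in Nkd1 and Apcdd1.

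**Figure D1:**
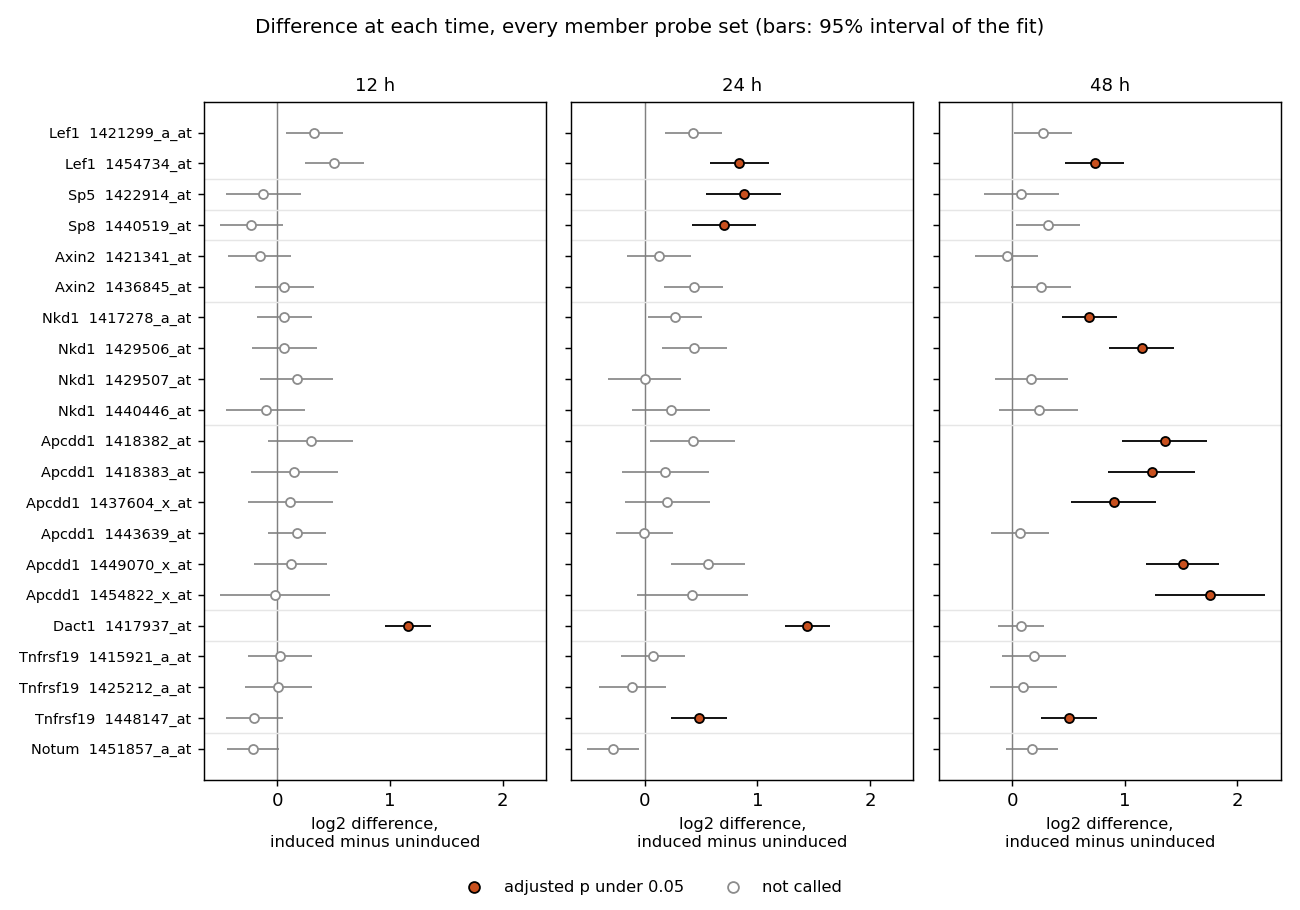
Log2 difference in signal, induced minus uninduced bodies, for all 21 member probe sets (rows, with gene and probe set) at 12, 24 and 48 h (panels). Points are the fitted differences of 3 against 3 arrays, bars their 95% intervals from limma, filled points have an adjusted p under 0.05, and calls number 1, 5 and 9 in order of time.

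Markers of cell types moved with induction as well, and their part in the member genes' differences was not tested. The list of 10 presomitic mesoderm markers includes Msgn1, which the doxycycline switches on, so its rise was set by the design. Their summed signal was 978 to 1042 in induced and 323 to 362 in uninduced bodies at 12 h, when Dact1 was called, and 1817 to 1942 in induced and 746 to 874 in uninduced bodies at 48 h. Of the 8 tested, 3 were called higher at 12 h, 5 at 24 h and 7 at 48 h, Msgn1 among them each time, and Meox1 and Ripply2 stayed under the filter in both groups. For 9 primitive streak markers the sum at 24 h, when Sp5 and Sp8 were called, was 2899 to 3830 in induced and 1950 to 2606 in uninduced bodies, with 5 called higher and 0 lower. Their sums overlapped at 48 h, at 8002 to 10176 in induced and 7417 to 8973 in uninduced bodies, with 3 called higher and 1 lower. The 11 pluripotency markers at 48 h summed to 10215 to 11419 in induced and 13863 to 14003 in uninduced bodies, with 1 higher and 7 lower. Of 10 fibroblast markers, which could come from the feeder cells, the sum at 48 h was 899 to 921 in induced and 632 to 754 in uninduced bodies, with 2 of 9 tested called higher and Fap under the filter in both. The fibroblast sums were apart earlier as well. At 12 h they were 991 to 1170 in induced and 851 to 988 in uninduced bodies, with 0 called. At 24 h they were 1028 to 1065 in induced and 817 to 967 in uninduced bodies, with 2 called higher and 0 lower. Neural markers, 7 measured of 8, summed at 48 h to 1307 to 1826 in induced and 2769 to 3026 in uninduced bodies, with 1 of 6 tested called lower and Sox1 and Neurog2 under the filter in both. The median log2 difference of these 6 at 48 h was 0.03, so the lower sum does not describe the typical neural marker. Of 10 visceral and primitive endoderm markers the sum at 48 h was 1088 to 1272 in induced and 1024 to 1286 in uninduced bodies, with 3 of 8 called higher and 1 lower and with Afp, Ttr and Hnf4a under the filter in both. At 24 h the endoderm sums did not overlap, at 385 to 495 in induced and 301 to 328 in uninduced bodies, with 3 called higher and 0 lower.

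Lef1, the member of the Tcf/Lef family that is itself a Wnt target in several tissues, was higher in induced bodies from 24 h. On probe set 1454734_at its signal at 12 h was 613, 615 and 510.1 in induced bodies, against 418, 352 and 425 in uninduced bodies. After 24 h it was 634, 655 and 764 in induced bodies, against 373, 366 and 362 in uninduced bodies. The 48 h arrays read 1033, 845 and 823 in induced bodies, against 618, 591 and 399 in uninduced bodies. Induced and uninduced arrays did not overlap at any of the 3 times.

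The log2 difference of Lef1 was 0.51 ± 0.126 at 12 h (SE, limma adjusted p = 0.0877), which did not pass. It was 0.84 ± 0.126 at 24 h (adjusted p = 0.000377) and 0.73 ± 0.126 at 48 h (adjusted p = 0.000429), or 1.79-fold and 1.66-fold on the log2(signal + 32) scale. With the 12 h arrays fitted alone the 12 h difference passed (adjusted p = 0.0325, the lowest over 18 alternatives, which reached 0.361). Ordered by mean, the groups ran from 901 in induced bodies at 48 h through 684 and 579 in induced bodies at 24 h and 12 h to 536, 398 and 367 in uninduced bodies at 48 h, 12 h and 24 h. Induced bodies at 12 h overlapped uninduced bodies at 48 h, and uninduced bodies at 12 h overlapped those at 24 h and at 48 h. The dimmer probe set 1421299_a_at, with signals of 24.4 to 91.2, also had all induced arrays above all uninduced arrays at each time. Its differences of 0.33, 0.43 and 0.27 at 12, 24 and 48 h did not pass (adjusted p = 0.361, 0.0799 and 0.226).

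**Figure D2:**
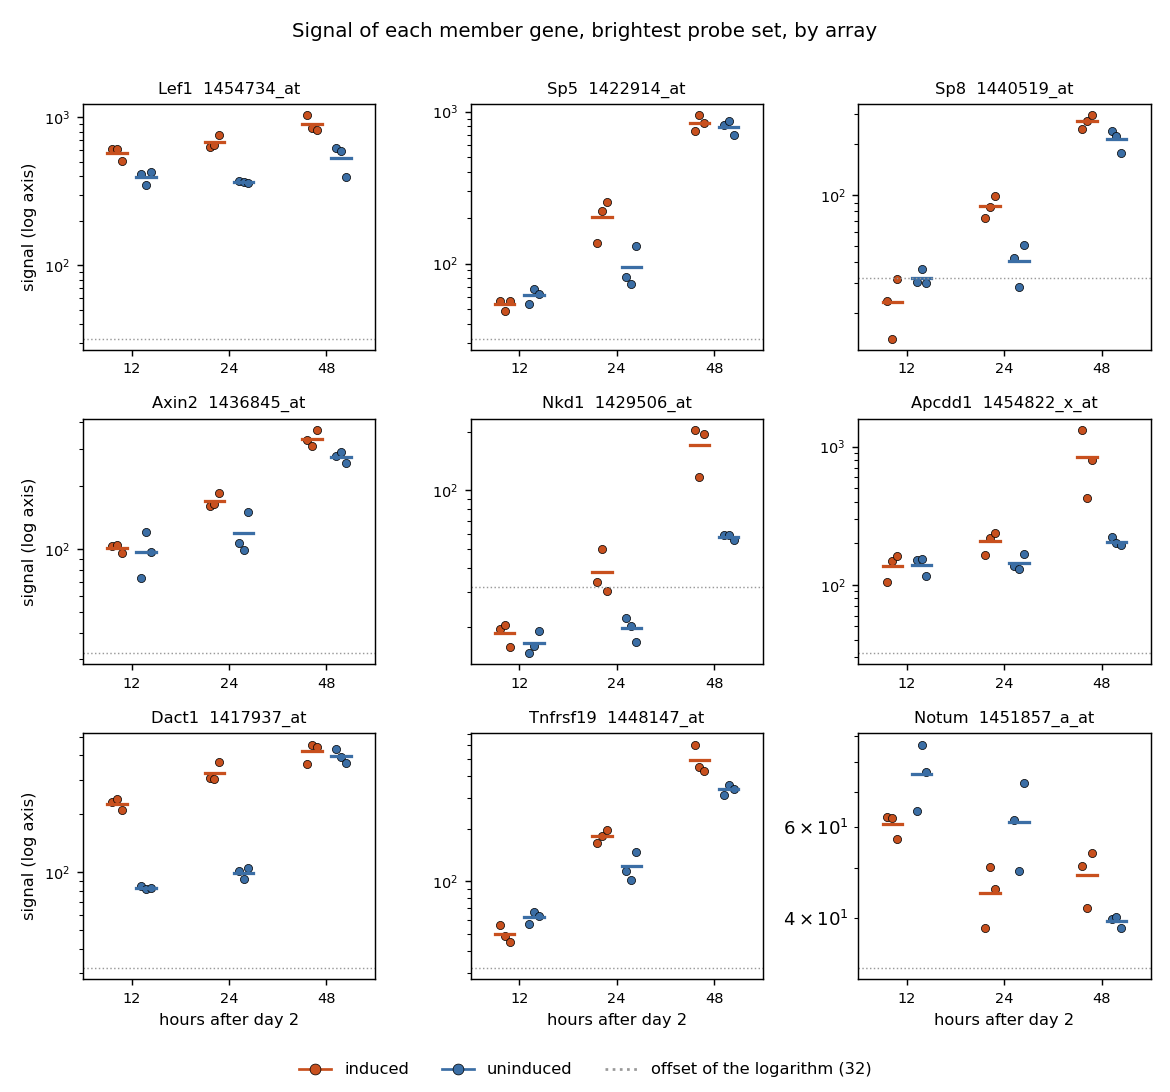
Signal on a logarithmic axis by hours after day 2 for the brightest probe set of each of the 9 member genes. Points are single arrays, short lines are means of 3, orange is induced and blue uninduced, and the dotted line marks the offset of 32; Dact1 separates at 12 h, Sp5 and Sp8 at 24 h, and Nkd1 and Apcdd1 most widely at 48 h.

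Sp5 and Sp8 encode zinc finger factors of the Sp family that are known Wnt targets in the early mouse embryo. Their RNA climbed steeply over time in induced and uninduced bodies alike, and induced bodies were ahead at 24 h. Sp5 had signals of 56.4, 48.4 and 56.7 in induced bodies at 12 h, against 54.2, 67.6 and 63.3 in uninduced bodies. By 24 h it read 136, 220.3 and 253 in induced bodies, against 81.9, 73.5 and 129.8 in uninduced bodies. The 48 h values were 748, 945 and 842 in induced bodies, against 819.9, 863 and 706 in uninduced bodies. All 3 induced arrays lay above the uninduced arrays at 24 h, and the groups overlapped at 12 h and 48 h.

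The Sp5 difference was 0.88 ± 0.161 at 24 h (adjusted p = 0.00319, 1.84-fold). At 12 h it stood at -0.13 ± 0.161 and at 48 h at 0.08 ± 0.161 (adjusted p = 0.872 and 0.861), with 95% intervals of -0.46 to 0.21 and -0.25 to 0.42. At 24 h replicate 3 had the highest signal in induced and in uninduced bodies. When the 24 h arrays were fitted alone the 24 h call was lost (adjusted p = 0.0944, the highest over 18 alternatives, which started at 0.000105).

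Sp8 was also called at 24 h alone. It read 23.4, 14.0 and 31.8 in induced bodies at 12 h, against 30.3, 36.4 and 29.8 in uninduced bodies. At 24 h it read 72.4, 85.1 and 98.3 in induced bodies, against 42.3, 28.5 and 50.5 in uninduced bodies. The 48 h values were 246, 276 and 296 in induced bodies, against 240.0, 222 and 178 in uninduced bodies. The groups overlapped at 12 h and were apart at 24 h and 48 h, by a narrow gap at 48 h. Its difference was 0.70 ± 0.136 at 24 h (adjusted p = 0.00524, 1.63-fold), and at 48 h it was 0.32 ± 0.136 and did not pass (adjusted p = 0.195). The 12 h value was -0.23 ± 0.136 (adjusted p = 0.646).

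Axin2, the scaffold of the destruction complex whose gene is among the most widely used Wnt reporters, was not called at any time. Probe set 1436845_at read 103, 104 and 95.3 in induced bodies at 12 h, against 72.7, 121 and 96.9 in uninduced bodies. After 24 h it read 159.6, 164 and 186 in induced bodies, against 107, 98.6 and 150.4 in uninduced bodies. After 48 h it read 329, 308 and 368 in induced bodies, against 278, 290.1 and 258 in uninduced bodies. Induced arrays were above uninduced arrays at 24 h and 48 h without overlap.

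The Axin2 differences were 0.06 ± 0.128, 0.43 ± 0.128 and 0.25 ± 0.128 at 12, 24 and 48 h (adjusted p = 0.93, 0.0927 and 0.292). With replicate number as a block for the 24 h arrays the 24 h difference passed (adjusted p = 0.0442), and it passed without uninduced 24 h replicate 3 at 0.58 (adjusted p = 0.0156). Over 18 alternatives the 24 h p ran from 0.0156 to 0.307. The 95% interval of the 48 h difference, -0.01 to 0.52, leaves room for a rise of the size seen at 24 h. The second probe set, 1421341_at, was near the floor of the array at 0.873 to 21.7 and was not called at any time.

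Nkd1 encodes a protein that binds Dishevelled and restrains Wnt signalling. Its RNA was low at first and was higher in induced bodies at 48 h. Probe set 1429506_at read 19.5, 20.4 and 15.7 in induced bodies at 12 h, against 14.6, 16.002 and 18.9 in uninduced bodies. At 24 h it read 34.1, 50.3 and 30.7 in induced bodies, against 22.1, 20.2 and 16.7 in uninduced bodies. At 48 h it read 204, 117 and 193 in induced bodies, against 58.8, 59.2 and 55.3 in uninduced bodies. The arms overlapped at 12 h and separated at 24 h, and the gap was widest at 48 h.

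The Nkd1 difference on this probe set was 0.06 ± 0.139 at 12 h and 0.44 ± 0.139 at 24 h, which did not pass (adjusted p = 0.942 and 0.133), and 1.15 ± 0.139 at 48 h (adjusted p = 5.62e-06, 2.22-fold). A second probe set, 1417278_a_at, read 101, 75.6 and 84.3 in induced bodies at 48 h, against 34.1, 45.4 and 46.4 in uninduced bodies, a difference of 0.69 ± 0.116 (adjusted p = 0.000357). These 2 probe sets correlated at 0.94 over the 18 arrays. The other 2, 1429507_at and 1440446_at, stayed at 9.99 to 53.7, were not called at any time, and correlated with 1429506_at at 0.61 and 0.27. The Nkd1 calls rest on 2 of its 4 probe sets.

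Apcdd1 encodes a membrane glycoprotein that inhibits Wnt signalling at the cell surface, and its brightest probe set had the largest difference among the members at 48 h. That probe set, 1454822_x_at, read 105, 149 and 161 in induced bodies at 12 h, against 151, 153 and 115 in uninduced bodies. After 24 h it read 163, 218 and 238 in induced bodies, against 137, 131 and 166 in uninduced bodies. After 48 h it read 1318, 427 and 796 in induced bodies, against 222, 200.5 and 193 in uninduced bodies. The arms overlapped at 12 h and 24 h and were apart at 48 h, where the induced replicates were widely spread among themselves.

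The difference of 1454822_x_at at 48 h was 1.76 ± 0.235 (adjusted p = 2.07e-05, 3.38-fold), after -0.02 ± 0.235 at 12 h and 0.42 ± 0.235 at 24 h (adjusted p = 0.99 and 0.507). Of 6 Apcdd1 probe sets 5 were called at 48 h. The others called were 1449070_x_at at 1.51 ± 0.157, 1418382_at at 1.35 ± 0.181, 1418383_at at 1.24 ± 0.185 and 1437604_x_at at 0.90 ± 0.181 (adjusted p = 6.84e-07, 2.05e-05, 8.11e-05 and 0.00204). In the plot of all Nkd1 and Apcdd1 probe sets, induced replicate 2 is the lowest induced array of all 5 at 48 h and replicate 1 the highest. These 5 correlated with each other at 0.84 to 0.95 over 18 arrays. The sixth, 1443639_at, had signals of 3.04 to 18.3 throughout, was not called, and correlated with the others at -0.22 to -0.01. Identifiers ending in _x_at mark probe sets that may also bind other transcripts, and 1418382_at and 1418383_at carry no such mark. At 24 h 1449070_x_at stood at 0.56 ± 0.157 and did not pass (adjusted p = 0.0714), but passed in the 24 h arrays alone with replicate number as a block (adjusted p = 0.00765, the lowest of 17 alternatives, which reached 0.207). In that fit 1454822_x_at passed at 24 h too (adjusted p = 0.034, in a range of 0.034 to 0.715).

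**Figure D3:**
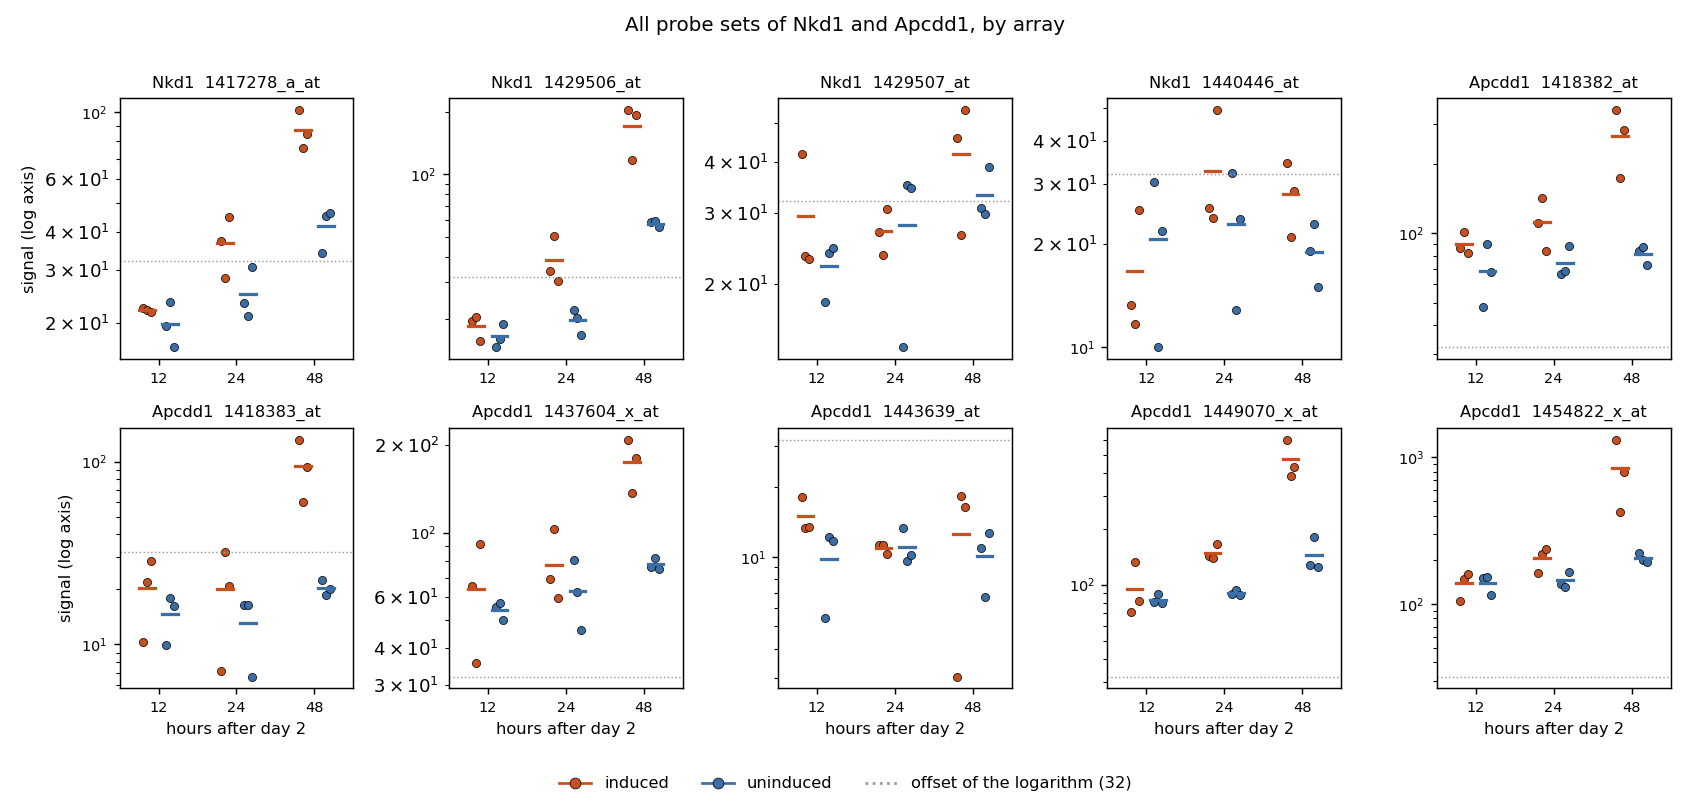
Signal on a logarithmic axis by hours after day 2 for the 4 probe sets of Nkd1 and the 6 of Apcdd1, with induced arrays in orange left of uninduced arrays in blue, means of 3 as short lines and the offset of 32 dotted. At 48 h the arms are apart for 2 Nkd1 and 5 Apcdd1 probe sets and overlap for the other 3. The share of all tested probe sets with arms apart is not given, so these counts have no comparison.

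Dact1 encodes a Dishevelled-binding modulator of Wnt signalling and is expressed in presomitic mesoderm of the mouse embryo. It was the earliest and, at 12 h and 24 h, the most strongly changed of the members tested. Its signal at 12 h was 229, 239 and 209 in induced bodies, against 85.0, 81.6 and 82.9 in uninduced bodies. At 24 h it was 305, 303 and 370.3 in induced bodies, against 101, 91.8 and 105 in uninduced bodies. At 48 h it was 362, 455 and 439.8 in induced bodies, against 431, 390.3 and 364 in uninduced bodies. The arms were far apart at 12 h and 24 h and interleaved at 48 h.

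The Dact1 difference was 1.16 ± 0.0982 at 12 h (adjusted p = 2.73e-07, 2.23-fold) and 1.44 ± 0.0982 at 24 h (adjusted p = 8.24e-09, 2.72-fold). Ranked over all 30727 probe sets, it was the 20th largest positive difference at each of these times. After 48 h it was 0.08 ± 0.0982 (adjusted p = 0.766, 95% interval -0.13 to 0.28). Mean signal over time was 225 ± 15.3, 326 ± 38.3 and 419 ± 49.7 in induced bodies at 12, 24 and 48 h, and 83.2 ± 1.74, 99.2 ± 6.73 and 395 ± 33.7 in uninduced bodies (SD, n = 3 each).

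Tnfrsf19, a receptor of the tumour necrosis factor receptor family known as a Wnt target, was higher in induced bodies at 24 h and 48 h on 1 of its 3 probe sets. That probe set, 1448147_at, read 56.0, 48.7 and 45.2 in induced bodies at 12 h, against 57.2, 66.4 and 63.5 in uninduced bodies. After 24 h it read 166, 181 and 196 in induced bodies, against 115, 102 and 148 in uninduced bodies. At 48 h it read 605, 453 and 429.9 in induced bodies, against 314, 357 and 338 in uninduced bodies. No neighbouring groups overlapped in the order of means, which ran 50.0 and 62.4 for induced and uninduced bodies at 12 h, 181 and 122 at 24 h, and 496 and 336 at 48 h.

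The Tnfrsf19 difference was -0.20 ± 0.12 at 12 h (adjusted p = 0.646), 0.48 ± 0.12 at 24 h (adjusted p = 0.0392, 1.39-fold) and 0.51 ± 0.12 at 48 h (adjusted p = 0.00822, 1.42-fold). The 24 h call was lost when any of 4 arrays was left out: uninduced replicate 1 (adjusted p = 0.144) or 2 (0.179), or induced replicate 2 (0.128) or 3 (0.144). It was lost with replicate number as a block at all 3 times (adjusted p = 0.0602) and kept with the block at 24 h alone (0.0193) and in the 24 h arrays alone with a block (0.0167). Over 18 alternatives the p ran from 0.00999 to 0.179. The 48 h call was lost without induced replicate 1 alone of 6 arrays left out (0.36, adjusted p = 0.0827, with a range over 18 alternatives of 0.00384 to 0.0827). The other probe sets, 1425212_a_at at 24.5 to 113 and 1415921_a_at at 1.62 to 23.2, were not called at any time, with differences at 48 h of 0.10 ± 0.142 and 0.19 ± 0.137.

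Notum encodes a secreted enzyme that removes the lipid from Wnt proteins, and it was not called between the arms at any time. Its signal at 12 h was 62.7, 62.5 and 56.8 in induced bodies, against 64.3, 86.5 and 76.4 in uninduced bodies. At 24 h it was 38.3, 50.1 and 45.4 in induced bodies, against 61.8, 49.2 and 73.0 in uninduced bodies. After 48 h it was 50.4, 41.7 and 53.4 in induced bodies, against 39.8, 40.1 and 38.2 in uninduced bodies. Induced arrays lay below uninduced ones at 12 h, overlapped them at 24 h and lay above them at 48 h. The differences of -0.21 ± 0.111, -0.28 ± 0.111 and 0.17 ± 0.111 did not pass (adjusted p = 0.583, 0.275 and 0.458).

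Most members rose with time in both arms. Notum was an exception, and in uninduced bodies Apcdd1 was called higher on 1449070_x_at alone. Between 12 h and 48 h, 16 of 21 member probe sets were called higher and 0 lower in induced bodies, beside 17.6% higher and 13.8% lower of all tested probe sets. Without adjustment 17 were higher and 0 lower, counts for which no share of all probe sets is given. In uninduced bodies 11 were called higher and 1 lower, beside 14.0% higher and 10.4% lower of all. Sp5 showed the largest rise, by 3.35 ± 0.161 in induced and 3.14 ± 0.161 in uninduced bodies on the log2 scale (adjusted p = 6.62e-13 and 4.24e-12). It ranked 11th of 30727 among rises in induced bodies and 12th in uninduced bodies.

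Sp8 rose by 2.48 ± 0.136 in induced and 1.93 ± 0.136 in uninduced bodies, and Tnfrsf19 by 2.67 ± 0.12 and 1.96 ± 0.12 in the same order. Axin2 rose by 1.46 ± 0.128 in induced and 1.27 ± 0.128 in uninduced bodies, 2.75-fold and 2.41-fold. Nkd1 rose by 1.98 ± 0.139 in induced and 0.89 ± 0.139 in uninduced bodies on 1429506_at. For Dact1 the order was the other way, at 0.80 ± 0.0982 in induced and 1.89 ± 0.0982 in uninduced bodies. Apcdd1 on 1454822_x_at rose by 2.25 ± 0.235 in induced bodies, and its 0.47 ± 0.235 in uninduced bodies did not pass (adjusted p = 0.162). In uninduced arrays fitted alone it did pass (adjusted p = 0.00713, with a range over 18 alternatives of 0.00568 to 0.384). A second Apcdd1 probe set, 1449070_x_at, rose by 0.60 ± 0.157 in uninduced bodies (adjusted p = 0.00684), a call lost without uninduced 48 h replicate 2 (adjusted p = 0.0598). Lef1 changed least among those that rose, by 0.61 ± 0.126 in induced and 0.38 ± 0.126 in uninduced bodies (adjusted p = 0.000692 and 0.0307). The uninduced Lef1 call was lost without uninduced 12 h replicate 2, 48 h replicate 1 or 48 h replicate 2 (adjusted p = 0.146, 0.175 and 0.146). Notum fell by 0.59 in uninduced bodies (SE 0.111, adjusted p = 0.000375) and stood at -0.21 ± 0.111 in induced bodies (adjusted p = 0.177).

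**Figure D4:**
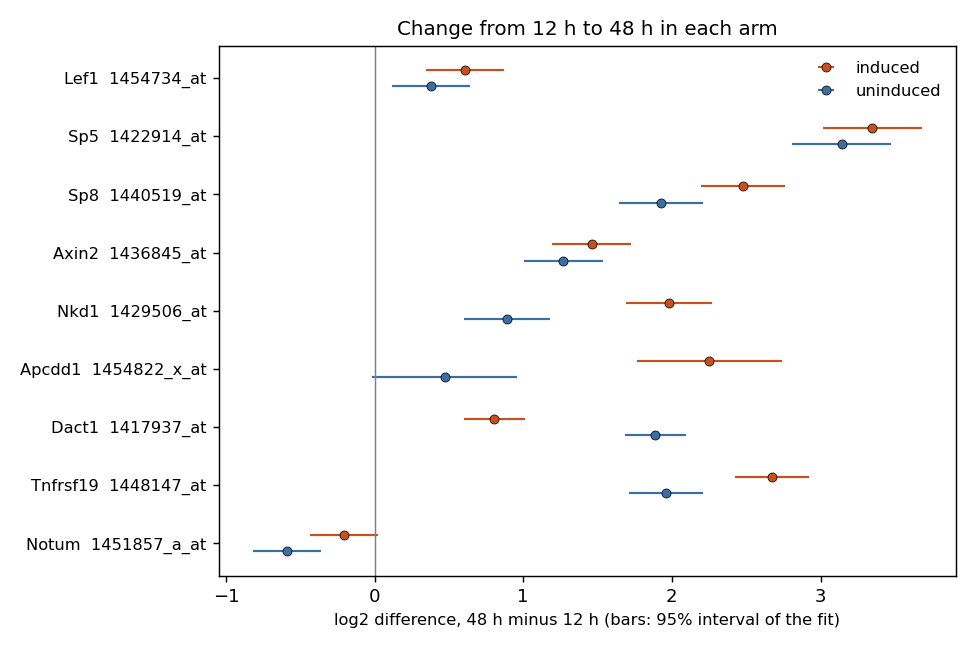
Log2 difference between 48 h and 12 h within induced (orange, upper) and uninduced (blue, lower) bodies for the brightest probe set of each member gene, with 95% intervals from limma. Dact1 has its larger rise in uninduced bodies and Nkd1, Apcdd1 and Tnfrsf19 theirs in induced bodies. The intervals of Lef1, Sp5, Sp8, Axin2 and Notum overlap between arms.

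Whether the effect of induction changed between times was tested directly as a difference of differences. From 12 h to 24 h 0 of 21 member probe sets were called in either direction by limma, beside 0.0325% higher and 0.00976% lower of all. Though 3 were higher without adjustment, no share of all probe sets is given for that count. These 3 were Sp5 at 1.00 ± 0.228, Sp8 at 0.93 ± 0.192 and Tnfrsf19 at 0.68 ± 0.169 (adjusted p = 0.172, 0.109 and 0.248). With replicate number as a block at 24 h the Sp5 change passed (adjusted p = 0.0137), as it did without uninduced 24 h replicate 3 (0.0293) or induced 24 h replicate 1 (0.0114), with a range of 0.0114 to 0.417 over 24 alternatives.

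From 24 h to 48 h the effect on Dact1 fell by 1.37 (SE 0.139, adjusted p = 8.2e-06), the 10th largest fall of 30727, and 3 Apcdd1 probe sets gained. Calls were 3 higher and 1 lower of 21, beside 0.807% higher and 0.843% lower of all. The Apcdd1 gains were 1.06 ± 0.262 for 1418383_at, 0.95 ± 0.222 for 1449070_x_at and 1.33 ± 0.333 for 1454822_x_at (adjusted p = 0.0407, 0.0268 and 0.0422). These calls were lost in 9, 7 and 10 of 12 fits that each left out 1 array, with adjusted p up to 0.135, 0.0963 and 0.117. Induced 48 h replicate 1 was the array whose loss lowered them most, to 0.85, 0.77 and 0.96. The Sp5 effect stood at -0.80 ± 0.228 and did not pass (adjusted p = 0.0916), but passed with the block at 24 h (adjusted p = 0.00974), without uninduced 24 h replicate 3 (0.016) and without induced 24 h replicate 1 (0.00844), in a range of 0.00844 to 0.238 over 24 alternatives. Nkd1 on 1429506_at stood at 0.71 ± 0.197 (adjusted p = 0.0744), and passed under 4 alternatives, lowest without induced 48 h replicate 2, in a range of 0.00266 to 0.227.

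From 12 h to 48 h, a comparison added after the data were seen, 7 member probe sets gained and 1 lost, beside 1.58% higher and 1.42% lower of all. The gains were 1.09 ± 0.197 and 0.62 ± 0.165 for Nkd1 on 1429506_at and 1417278_a_at, 1.06 to 1.78 for 4 Apcdd1 probe sets and 0.71 ± 0.169 for Tnfrsf19 (adjusted p = 0.00192 and 0.0388 for Nkd1, 0.0196 for Tnfrsf19). The loss was that of Dact1, by 1.08 (SE 0.139, adjusted p = 5.02e-05). These comparisons share arrays with those at single times and are no separate evidence. Leaving out any 1 array kept the calls of Dact1, of Nkd1 1429506_at and of Apcdd1 1449070_x_at and 1454822_x_at. The call of Nkd1 1417278_a_at was lost in 9 of 12 such fits (adjusted p up to 0.123). Those of Apcdd1 1418382_at and 1418383_at were lost in 5 and 4 (up to 0.0804 and 0.0761), and that of Tnfrsf19 in 4 (up to 0.0662, without induced 48 h replicate 1).

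The rest of the pathway was described with 6 lists, each gene by its kept probe set of highest mean signal. Of 14346 genes so represented, 0.697% were higher and 0.132% lower in induced bodies at 12 h, 2.17% and 0.586% at 24 h, and 5.97% and 4.75% at 48 h. The list of other Wnt targets and feedback genes held most calls, with 1 higher and 0 lower of 29 tested at 12 h, 9 and 1 at 24 h, and 14 and 2 at 48 h. Its median log2 difference was -0.03, 0.24 and 0.38 at 12, 24 and 48 h, where that of all genes was 0.00, 0.01 and 0.01. This list shares Dll1, Tbx6 and Ripply2 with the presomitic mesoderm markers above, and Mixl1, Evx1, Mesp1 and Fgf8 with the primitive streak markers. Lgr5, Znrf3 and Rnf43 are also on the receptor list. Rspo3, Wnt3 and Sox17 of other lists are cell type markers above too. Calls of shared genes are therefore not separate results. The bar chart of list counts shows how the other 5 lists held few calls before 48 h.

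**Figure D5:**
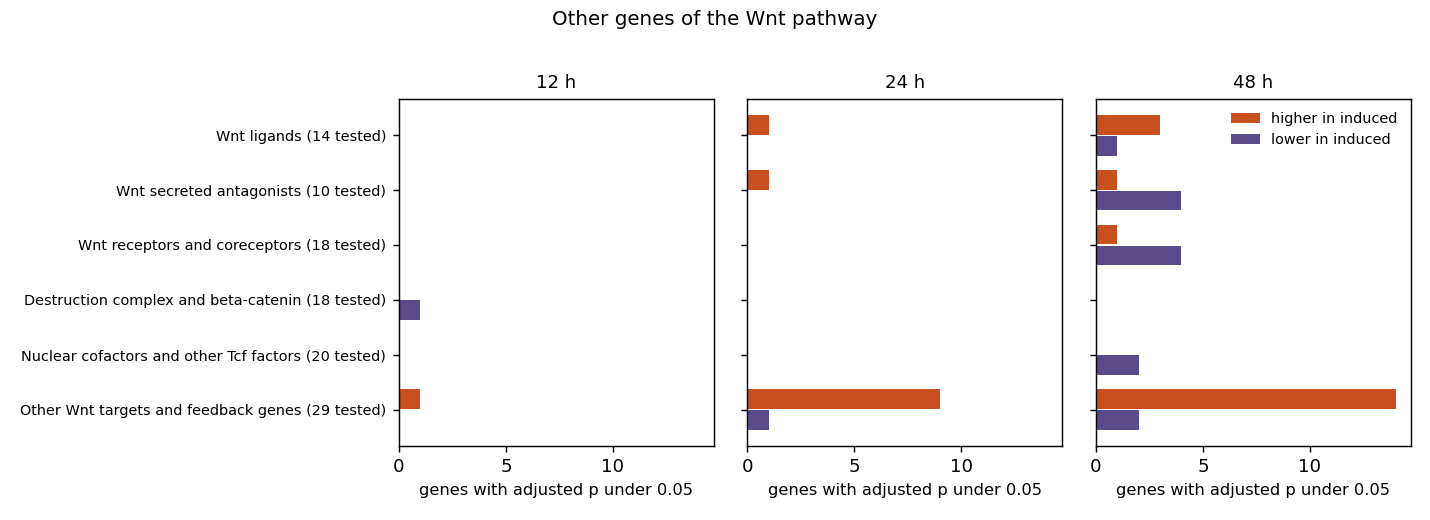
Number of genes called higher (orange) or lower (purple) in induced than in uninduced bodies at 12, 24 and 48 h (panels) in 6 lists of Wnt pathway genes, with the number tested beside each name. Other Wnt targets and feedback genes had 9 higher at 24 h and 14 at 48 h, and the destruction complex had 1 call in all.

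Dll1, the Notch ligand of presomitic mesoderm, was the target called at 12 h, with a signal of 318 ± 23.5 in induced and 87.2 ± 8.17 in uninduced bodies (SD, n = 3 each; difference 1.56 ± 0.129). At 24 h the largest differences on this list were those of Mixl1, a homeobox gene of the primitive streak (1.19 ± 0.189), Dll1 (0.86 ± 0.129), Mesp1, a mesoderm factor (0.82 ± 0.166), and the T-box gene Tbx6 (0.68 ± 0.115). The Mesp1 call at 24 h was lost without uninduced replicate 2 or induced replicate 2 (adjusted p = 0.0616 and 0.0716). At 48 h they were those of Bmp4, a BMP ligand, at 624 ± 289 in induced and 83.2 ± 33.0 in uninduced bodies (2.45 ± 0.233), Msx1 (1.71 ± 0.102), Evx1 (1.23 ± 0.154) and Mesp1 (1.11 ± 0.166). Many of these are known to answer other signals also, so the list is not a measure of Wnt activity alone.

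Among 14 Wnt ligands and R-spondins tested, 0 were called at 12 h, 1 was higher at 24 h, and 3 were higher and 1 lower at 48 h. Rspo3, which amplifies Wnt signals at the receptor, was at 106 ± 11.3 in induced and 43.6 ± 0.29 in uninduced bodies at 24 h (0.86 ± 0.122, adjusted p = 0.00019). Of 2 kept Rspo3 probe sets 1 had this call. At 48 h Rspo3 was at 574 ± 68.2 in induced and 274 ± 25.7 in uninduced bodies (0.98 ± 0.122), and 2 of 2 were called. Wnt2 and Wnt3 were higher at 48 h by 0.78 ± 0.108 and 0.68 ± 0.134 (adjusted p = 3.01e-05 and 0.00159). Rspo1 stood at -0.38 ± 0.116 at 48 h (adjusted p = 0.0465), a call lost when any array but induced replicate 2 of the 6 was left out (adjusted p up to 0.229).

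Of 10 secreted antagonists 0 were called at 12 h, 1 was higher at 24 h, and 1 was higher and 4 lower at 48 h. Cer1, which binds Wnt, Nodal and BMP ligands in the frog embryo, was at 94.7 ± 28.0 in induced and 364 ± 88.2 in uninduced bodies at 48 h (-1.64 ± 0.224, adjusted p = 2.71e-05). Sfrp1 and Sfrp2, secreted Frizzled-related proteins, were lower, at -0.54 ± 0.119 and -0.49 ± 0.0821 (adjusted p = 0.00444 and 0.000344). Of 5 kept Sfrp1 probe sets 3 had this call. Dkk1, an Lrp-binding inhibitor and Wnt target, was higher at 48 h at 649.7 ± 39.8 in induced and 397 ± 50.3 in uninduced bodies (0.67 ± 0.134, adjusted p = 0.00178). Its call at 24 h (0.52 ± 0.134, adjusted p = 0.0493) was lost when any of 5 of the 6 arrays was left out, in a range of 0.00489 to 0.259. It was kept with the replicate block at 24 h alone (adjusted p = 0.0206), and lost with a block at all 3 times (0.0624) or in the 24 h arrays alone with a block (0.0623). At 24 h 1 of 2 kept Dkk1 probe sets was called. The list's median difference at 48 h was -0.36.

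Of 18 receptors and coreceptors 0 were called at 12 h and at 24 h, and 1 was higher and 4 lower at 48 h. Among Frizzled receptors at 48 h, Fzd8 was lower at 24.7 ± 6.41 in induced and 82.6 ± 11.3 in uninduced bodies (-1.02 ± 0.126), Fzd5 stood at -0.93 ± 0.108 and Fzd6 at -0.59 ± 0.118, and Fzd10 was higher by 0.52 ± 0.107 (adjusted p = 8.11e-06, 3.51e-06, 0.0021 and 0.00267). The Fzd5 call held on 1 of its 2 kept probe sets. Fzd10 stood at 0.39 ± 0.107 at 24 h (adjusted p = 0.0667) and passed with the block at 24 h (adjusted p = 0.0455, in a range of 0.0406 to 0.277).

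The destruction complex and beta-catenin itself, 18 genes tested, had 1 call over the 3 times. This was Axin1 at 12 h, at 120.1 ± 10.5 in induced and 174 ± 11.5 in uninduced bodies (-0.44 ± 0.0904, adjusted p = 0.0248), a call lost without any of 4 of the 6 arrays (adjusted p up to 0.164). Of 2 kept Axin1 probe sets 1 had this call. Of 20 nuclear cofactors and other Tcf factors 0 were called at 12 h and 24 h and 2 were lower at 48 h: Sox17, an endoderm factor that can restrain beta-catenin in the frog, at -0.84 ± 0.15, and the corepressor gene Ctbp2 at -0.47 ± 0.0646 (adjusted p = 0.000592 and 3.15e-05).

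Where a list had no call at a time, its genes with the largest differences are given as values, none of which passed. At 12 h these were Wnt7b (-0.42 ± 0.129) and Wnt2b (-0.28 ± 0.136) among ligands, and Sfrp5 (-0.26 ± 0.169) and Dkk1 (0.26 ± 0.134) among antagonists. The receptor genes Fzd1 (0.46 ± 0.115) and Fzd8 (-0.27 ± 0.126) and the cofactor genes Tle3 (-0.23 ± 0.102) and Bcl9l (0.21 ± 0.125) were the others at that time. At 24 h they were Lgr5, a receptor for R-spondins (0.36 ± 0.137), the kinase genes Gsk3b (0.22 ± 0.0846) and Csnk1e (0.20 ± 0.11), and the cofactor genes Bcl9 (-0.32 ± 0.121) and Ctnnbip1 (0.23 ± 0.0937). At 48 h they were Tnks (0.22 ± 0.0943) and Gsk3a (-0.18 ± 0.152) of the destruction complex list.

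Genes whose signal ran most like a member's over the 18 arrays were listed by Pearson's r on the log2 scale, as a description over groups that differ in time and induction. Sp5 ran closest to Mixl1 (0.995), Sp8 (0.990) and Sox11 (0.988), and Sp8 to Sp5, Mixl1 (0.989) and Cdh2 (0.987). Tnfrsf19 ran closest to Ndn (0.985), Itgb5 (0.983) and Zfp521 (0.982), and Nkd1 to Tsc22d3 (0.984), Evx1os (0.979) and Bmper (0.978). Dact1 ran closest to Phc2 (0.971), Sema6d (0.954) and Lpar6 (0.944). For Apcdd1 these were Morc4 (0.962), Hapln1 (0.958) and Tbx20 (0.957). For Lef1 they were Cdc42ep4 (0.955), Wnt5a (0.943) and Greb1l (0.937). The genes were taken from 24936 to 24941 probe sets of other single genes.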

How the data were processed

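RNA from 18 samples of embryoid bodies was hybridised to Affymetrix expression arrays. The deposited values are linear signal intensities per probe set, made with the Affymetrix software GCOS, as the submitters' processing notes say. Which algorithm computed the signal is not given in the sources used here. A mean trimmed by 2% was 150.001 on every array, and array medians differed by 0.092 on the log2 scale, so no normalization was added. Probe sets were kept where the mean signal of at least 1 of 6 groups reached 13.3, the 40th percentile of all values, which left 30727 of 45037. The array's 64 control probe sets were left out. Names came from the platform annotation, updated by Entrez identifier, with 34945 probe sets matched to 1 gene and 932 to several.

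Differences were fitted on log2(signal + 32) with limma 3.58.1 in R 4.3.3, with 6 group means, 12 residual degrees of freedom, a variance trend, two-sided tests and Benjamini-Hochberg adjustment over all probe sets kept. The procedure was tested on simulated data. The number of arrays limits the precision.

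The members, gene lists and tests were chosen with earlier results of these data known. Every member probe set was to be named, and per list and time up to 4 called genes by size of difference, or 2 with values only where none was called. The comparison of the induction effect between 12 h and 48 h, and a replicate block at 24 h alone, were added after seeing the data. Whether replicate numbers pair arrays was checked by correlating deviations from group means. Same-numbered arrays correlated at 0.185, 0.107 and 0.411 at 24 h, all above 0.1, so the numbers were treated as pairing arrays at that time. Induced replicate 1 with uninduced replicate 2 stood at 0.182, and induced replicate 2 with uninduced replicate 1 at 0.096. Pairs of replicate 3 with another number stood at -0.307 to -0.169. The values thus set replicate 3 apart but do not show that replicates 1 and 2 are paired by number. The reported fit has no block, and blocked values at 24 h stand beside the results whose calls they change. The numbers did not pair arrays at 12 h (-0.010, 0.074 and -0.085) or 48 h (-0.084, -0.023 and 0.130). Alternatives were quantile normalization, no filter and a stricter filter, offsets of 16 and 64, 1 probe set per gene, no variance trend, a robust trend, replicate blocks, the arrays of a comparison alone, and leaving out each array. RefSeq promoters (GRCm38.p6) were searched on both strands.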

Additional observations from a re-analysis of the deposited data

Results flagged for a closer look

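For 12 results the effect of induction differed between times when the difference itself was tested with limma's interaction term. Dact1 had a lower effect at 48 h than at 24 h (-1.37) and than at 12 h (-1.08) on the log2 scale. Nkd1 had a higher effect at 48 h than at 12 h on 1429506_at (1.09) and on 1417278_a_at (0.62). Apcdd1 had a higher effect at 48 h than at 24 h on 1418383_at (1.06), 1449070_x_at (0.95) and 1454822_x_at (1.33). Against 12 h its effect at 48 h was higher on 1418382_at (1.06), 1418383_at (1.09), 1449070_x_at (1.40) and 1454822_x_at (1.78). Tnfrsf19 had a higher effect at 48 h than at 12 h on 1448147_at (0.71). The 3 Apcdd1 calls against 24 h were lost in 9, 7 and 10 of 12 fits that each left out 1 array. That of Nkd1 1417278_a_at was lost in 9 of 12. Other such losses are given above, and probe sets of the same gene are not separate results.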

How the results depend on the processing

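Of the single values recomputed, 3100 kept direction and call, 128 lost and 30 gained the call, and 11 turned sign. Of the counts, 584 stayed within 1.5 times and 64 moved. With no filter, 15 probe sets were lower at 12 h (25 in the reported fit), 1 lost effect from 12 h to 24 h (3), 0 members gained effect from 24 h to 48 h (3) and 4 from 12 h to 48 h (7). With a replicate block at 24 h alone, 58 were lower at 12 h, 209 lower at 24 h (113), 21 gained effect from 12 h to 24 h (10), 1 of them a member (0), and 2 members lost effect from 24 h to 48 h (1). With the arrays of a comparison alone, 2 members were higher at 12 h (1), and at 24 h 223 were higher (463) and 33 lower. With a block as well, 339 were lower and 8 members higher at 24 h (5), and 0 lost effect from 12 h to 24 h, as without the variance trend (0). Members gaining from 24 h to 48 h numbered 1 with an offset of 16, without the trend, with the replicate block, and with the arrays alone with and without it. With 1 probe set per gene, which tests fewer, 4 members were higher at 48 h (9), 8 rose in induced (16) and 7 in uninduced bodies (11), beside 3247 (5406), 2692 lower (4251) and 2657 (4305) of all, and 3 gained from 12 h to 48 h. The 3 fits with a replicate block changed no call of a member gene at 24 h other than those of Axin2, Apcdd1 and Tnfrsf19 given above.

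Leaving out 1 array gave 82 to 121 higher and 7 to 19 lower at 12 h (139 and 25), 288 to 422 higher and 39 to 104 lower at 24 h, the fewest lower without induced 24 h replicate 2. Effects from 12 h to 24 h numbered 6 to 16 gains and 0 to 4 losses, 0 to 1 of them member gains. From 24 h to 48 h they numbered 164 to 290 gains and 163 to 300 losses, with 0 to 5 and 1 to 2 among members, and 3 to 7 members gained from 12 h to 48 h. Uncalled values that turned sign when 1 array was left out ranged from -0.079 to 0.19 for Axin2 1436845_at at 12 h (0.06 in the reported fit) and from -0.13 to 0.13 for Apcdd1 1454822_x_at at 12 h (-0.02). The effect from 12 h to 24 h ranged from -0.16 to 0.022 for Notum (-0.07), and that from 24 h to 48 h from -0.11 to 0.12 for Tnfrsf19 1448147_at (0.03) and from -0.30 to 0.0014 for Lef1 1454734_at (-0.11). The cause was not tested.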
